A study of Mus musculus with 4 samples.

Results

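The 7 haemoglobin genes *Hbb-bh1*, *Hbb-y*, *Hba-x*, *Hba-a1*, *Hba-a2*, *Hbb-bt* and *Hbb-bs*, picked by symbol from the 31055 genes of the count tables, were followed in the erythroid cells of the E8.5 mouse caudal embryo and as low-level signal in the other cells. A cell was called erythroid when it held at least 1 unique molecular identifier (UMI, 1 counted RNA molecule) of both *Gata1* and *Klf1*, transcription factors of the red cell lineage. This gate took 239 of the 20198 cells that passed the filters (3000 genes, 7500 UMIs, at most 7% mitochondrial UMIs), namely 65 and 48 cells in WT libraries 1 and 2 and 60 and 66 cells in *Grhl3*-null libraries 1 and 2.

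The study profiled the caudal part of WT and *Grhl3*-null embryos from *Grhl3*+/- intercrosses, collected at E8.5, by droplet-based single-cell RNA sequencing of transcript 3′ ends. *Grhl3*-null embryos lack a grainyhead-like transcription factor in every cell from conception, so the loss was not limited to blood. The WT libraries came from 1 pool of 5 embryos and the *Grhl3*-null libraries from 1 pool of 3 embryos, each pool loaded in 2 reactions. The 2 libraries of a genotype therefore share embryos, and every p-value below measures the spread between reactions of a pool, which may be technical and does not cover the spread between embryos.

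Haemoglobin is built from α-type and β-type chains around haem, and its genes lie in an α and a β cluster that are read in a developmental order. The first red cells, the primitive erythroid cells of the yolk sac, use the embryonic genes: *Hba-x* for the ζ chain, *Hbb-bh1* for the βH1 chain and *Hbb-y* for the εy chain. As primitive cells mature, *Hbb-y* is known to gain on *Hbb-bh1* and *Hba-a1* and *Hba-a2*, which encode the α chain, to gain on *Hba-x*, whereas *Hbb-bs* and *Hbb-bt* encode the β chains of later, definitive red cells.

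In mm10 (GRCm38) coordinates the β-type genes lie on the minus strand of chromosome 7, in the order *Hbb-bt* (chr7:103812524-103813996), *Hbb-bs* (chr7:103826534-103828096), *Hbb-bh1* (chr7:103841637-103843164) and *Hbb-y* (chr7:103851749-103853216). The α-type genes lie on the plus strand of chromosome 11, as *Hba-x* (chr11:32276400-32278116), *Hba-a1* (chr11:32283511-32284465) and *Hba-a2* (chr11:32296489-32297298). RefSeq start sites were found for 6 of the 7 genes in the GRCm38.p6 table, and all but *Hbb-bh1* were searched over the 150 bases before the start. The stretches below, 5′ to 3′, are the parts of that window outside annotated exons, shown for the gene that differed between genotypes (*Hbb-y*), the α gene with the next smallest adjusted p (*Hba-a2*) and both later β genes. The RefSeq start used for *Hbb-bs* lies inside the gene span given above, so its stretch does too. Capitals mark, on either strand, the motif CACCC that Krüppel-like factors such as KLF1 are known to bind. They also mark CCAAT, the box of the CCAAT-binding factors. The motif GATAA of the GATA factors and the TATAA of the core promoter are in capitals too.
*Hbb-y*, chr7:103853217-103853357, minus strand: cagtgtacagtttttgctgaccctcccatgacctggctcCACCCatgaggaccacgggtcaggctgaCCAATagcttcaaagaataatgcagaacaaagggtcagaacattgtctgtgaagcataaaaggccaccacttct
*Hba-a2*, chr11:32296342-32296488, plus strand: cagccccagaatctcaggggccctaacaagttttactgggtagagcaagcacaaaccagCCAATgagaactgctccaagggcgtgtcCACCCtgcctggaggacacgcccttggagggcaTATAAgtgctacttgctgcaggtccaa
*Hbb-bt*, chr7:103813997-103814073, minus strand: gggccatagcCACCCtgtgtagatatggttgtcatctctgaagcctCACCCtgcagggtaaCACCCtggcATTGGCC
*Hbb-bs*, chr7:103827929-103828011, minus strand: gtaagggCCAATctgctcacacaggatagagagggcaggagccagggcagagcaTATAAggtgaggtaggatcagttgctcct

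Over the whole 150 bases, CACCC was found once before *Hbb-y*, *Hba-x*, *Hba-a1*, *Hba-a2* and *Hbb-bs* and 3 times before *Hbb-bt*, against 37.4% of all 32851 promoters with a match. CCAAT was found before 5 of the 6 genes (24.5% of all promoters), TATAA before 5 (14.2%) and GATAA before *Hba-x* alone (13.3%). These matches describe letters and do not show bound sites.

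The files held 5698 to 6186 barcodes and 217559026 to 232903564 UMIs a library. The erythroid gate took 0.94% to 1.38% of the cells kept, with overlapping 95% exact binomial intervals (lowest bound 0.69%, highest bound 1.75%, counting error only). Erythroid cells were deep, with a median of 36345.5 to 47071 UMIs, so the abundant members were counted with little sampling error in a single cell. *Grhl3* was counted at 878 and 803 UMIs in the WT libraries and at 12 and 14 in the *Grhl3*-null libraries. Of the barcode sequences, 62 occurred in more than 1 library, none of them erythroid in both. All 7 erythroid markers were counted in the gated cells of every library. Their summed level ran from 1486 to 1849 counts per 1e6 UMIs (CPM), whereas 5 endothelial markers summed to 4.28 to 15.9 CPM, 4 macrophage markers to 0.324 to 2.14 CPM, 4 visceral endoderm markers to 1.01 to 7.48 CPM, 3 neural markers to 4.28 to 21.0 CPM, 5 megakaryocyte markers to 17.7 to 24.8 CPM, 5 blood progenitor markers to 17.7 to 27.8 CPM and 4 mesoderm markers to 10.2 to 30.1 CPM.

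Haemoglobin RNA made up a large part of these cells' UMIs, and its share was higher in WT than in *Grhl3*-null libraries. The 7 genes took 17.0% and 19.8% of the summed erythroid UMIs in WT libraries 1 and 2 and 13.2% and 13.9% in *Grhl3*-null libraries 1 and 2. The libraries of the 2 genotypes did not overlap, and the means were 18.4% (SD 1.99) and 13.6% (SD 0.447), n = 2 each. An exact two-sided permutation test of this difference of -4.81 percentage points gave p = 0.333, the smallest p that 2 against 2 libraries allow. Per cell, the median share was 16.6% and 19.9% in WT and 12.2% and 12.7% in *Grhl3*-null. Cells ranged widely within each library, up to 35.7% and 37.8% in WT and 27.1% and 31.0% in *Grhl3*-null. One gated cell of WT 1 held only 5 haemoglobin UMIs, or 0.0144% of its UMIs, while every other gated cell held at least 2.48%.

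**Figure D1:**
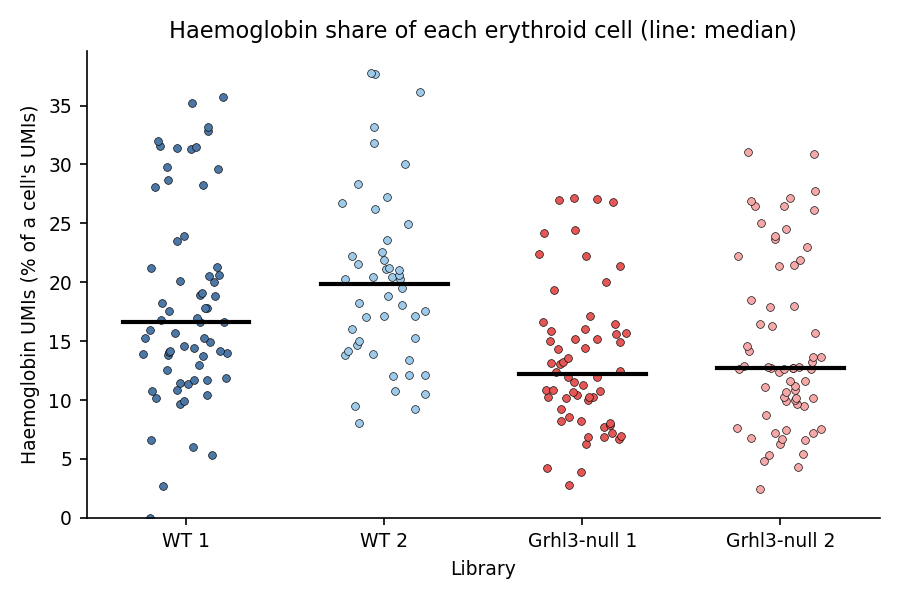
Haemoglobin UMIs as a percentage of all UMIs (y axis) in each of the 239 erythroid cells, by library (x axis); a point is a cell and the line is the library's median. The WT medians of 16.6% and 19.9% lie above the *Grhl3*-null medians of 12.2% and 12.7%, with broad overlap of the cells.

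Levels across genes are given below as CPM of the summed erythroid cells; a 3′ UMI is counted once per molecule, so no division by transcript length was made. The order of levels was *Hba-x*, *Hbb-y*, *Hbb-bh1*, *Hba-a1*, *Hba-a2*, *Hbb-bs* and *Hbb-bt* in every library. Within each genotype the ranges of neighbouring genes in this order did not overlap; *Hbb-y* and *Hbb-bh1* were closer in *Grhl3*-null than in WT cells, and *Hbb-bs* and *Hbb-bt* were low everywhere. *Hba-a1* and *Hba-a2* transcripts differ at 1 of 538 aligned bases and *Hbb-bs* and *Hbb-bt* at 39 of 625, with 177 and 81 gap bases besides. Where the 3′ reads fall was not checked. The split of UMIs within each of these pairs is therefore taken as uncertain, and their sums are given too. Reads that fit both genes of a pair may be missing from the counts, and the sums would then be too low as well.

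*Hbb-y*, the εy gene, was the member that differed between genotypes. It stood at 51478 and 62215 CPM in WT and at 31383 and 33118 CPM in *Grhl3*-null. Both *Grhl3*-null libraries lay below both WT libraries, with a gap wider than the range of either genotype. The log2 fold change was -0.90 (SE 0.11, edgeR quasi-likelihood test, adjusted p = 0.00636). Of the 8535 genes tested in erythroid cells 7 were called (0.082%) and 4 of them were lower in *Grhl3*-null (0.0469%), and *Hbb-y* was the 1 member among the 4. Without *Grhl3*-null replicate 2 the log2 fold change of *Hbb-y* was -0.93 and the call was lost (adjusted p = 0.0522).

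The other embryonic genes moved less. *Hbb-bh1*, the βH1 gene, stood at 29534 and 33858 CPM in WT and at 26861 and 27122 CPM in *Grhl3*-null (log2 fold change -0.31, SE 0.10, adjusted p = 0.583, edgeR). *Hba-x*, the ζ gene and the most abundant member, stood at 68023 and 78911 CPM in WT and 57263 and 61133 CPM in *Grhl3*-null (log2 fold change -0.39, SE 0.10, adjusted p = 0.433, edgeR). The *Grhl3*-null libraries lay below the WT libraries for both genes, but neither difference passed the test.

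The α genes also lay lower in both *Grhl3*-null libraries. *Hba-a1* stood at 13368 and 14449 CPM in WT and at 11188 and 11266 CPM in *Grhl3*-null, a log2 fold change of -0.39 (SE 0.08, adjusted p = 0.234, edgeR). *Hba-a2* stood at 5977 and 6892 CPM in WT and at 4473 and 4793 CPM in *Grhl3*-null, a log2 fold change of -0.55 (SE 0.09, adjusted p = 0.0666, edgeR). Summed over the pair, which removes only the uncertain split between them, the means were 20343 CPM (SD 1411) in WT and 15861 CPM (SD 281) in *Grhl3*-null, n = 2 each.

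The later β genes were a small part of the total and did not separate the genotypes. *Hbb-bs* stood at 876 and 1269 CPM in WT and at 1076 and 1057 CPM in *Grhl3*-null, so that the *Grhl3*-null libraries lay between the WT libraries (log2 fold change -0.08, SE 0.14, adjusted p = 0.957, edgeR). *Hbb-bt* stood at 349 and 204 CPM in WT and at 177 and 259 CPM in *Grhl3*-null, with overlapping groups (log2 fold change -0.43, SE 0.19, adjusted p = 0.764, edgeR). The pair nevertheless was detected in most cells, with at least 1 UMI of either gene in 93.8% and 97.9% of WT and 100% and 97.0% of *Grhl3*-null erythroid cells, at a median of 23 to 35 UMIs a cell. In single cells the pair reached 356 to 512 UMIs.

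The calls for the embryonic and α genes depended on the cells, genes and test entered, and the sizes of the differences on the libraries. With cells scored as doublets left out (9 and 1 in WT, 8 and 8 in *Grhl3*-null) edgeR called 85 of 7768 genes, 0.592% of them lower in *Grhl3*-null, among them *Hbb-y* (-1.11), *Hbb-bh1* (-0.39), *Hba-x* (-0.47), *Hba-a1* (-0.51) and *Hba-a2* (-0.70), all lower on the log2 scale. Without the filter on low counts it called 73 of 14579 genes, 0.206% of them lower, and all members but *Hbb-bs*. DESeq2 on the same sums called *Hbb-y* (adjusted p = 0.000991) and *Hba-a1* (-0.40, adjusted p = 0.00038). With either WT library left out, *Hbb-bh1*, *Hba-x*, *Hba-a1* and *Hba-a2* stayed lower in *Grhl3*-null. These fits have 1 residual degree of freedom and assume that a lone library varies like the others, so only sizes are given. *Hbb-bh1* was then -0.47 without WT replicate 1 and -0.16 without WT replicate 2, and *Hba-x* -0.56 and -0.23. *Hbb-bt* was -0.04 without WT replicate 1 and -0.70 without WT replicate 2. *Hbb-bs* went in opposite directions, at -0.39 without WT replicate 1 and 0.26 without WT replicate 2. *Hba-a1* was -0.51 and -0.28 and *Hba-a2* -0.71 and -0.40 in the same order.

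UMIs per cell, before any scaling, showed the same contrast between *Hbb-y* and *Hbb-bh1*. The median erythroid cell held 2006 and 2078 UMIs of *Hbb-y* in WT and 1126.5 and 965.5 in *Grhl3*-null. For *Hbb-bh1* the medians were 1298 and 1305 in WT and 1235.5 and 1227.5 in *Grhl3*-null, close together although the *Grhl3*-null cells were deeper. *Hba-x* had medians of 2898 and 3029 in WT and 2585 and 2718.5 in *Grhl3*-null. The α genes had medians of 544 and 511 against 492.5 and 484 for *Hba-a1*, and of 222 and 223 against 176.5 and 193.5 for *Hba-a2*.

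Single cells spread far around these medians. *Hbb-y* ran up to 6947 and 7577 UMIs a cell in WT and up to 5860 and 4931 in *Grhl3*-null, and down to 0 and 1 in *Grhl3*-null. In the same *Grhl3*-null libraries no cell had fewer than 451 UMIs of *Hbb-bh1* or 1077 of *Hba-x*, so every cell carried embryonic haemoglobin RNA even where *Hbb-y* was missing. *Hbb-bs* reached 344 to 503 UMIs in single cells at medians of 13 to 24, and *Hbb-bt* reached 49 to 242 at medians of 2 to 3.5. The 2 α genes kept a steadier ratio, with *Hba-a1* counted 2.24 and 2.10 times as often as *Hba-a2* in WT and 2.50 and 2.35 times in *Grhl3*-null, whereas *Hbb-bs* per *Hbb-bt* was 2.51 and 6.22 in WT and 6.07 and 4.09 in *Grhl3*-null.

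**Figure D2:**
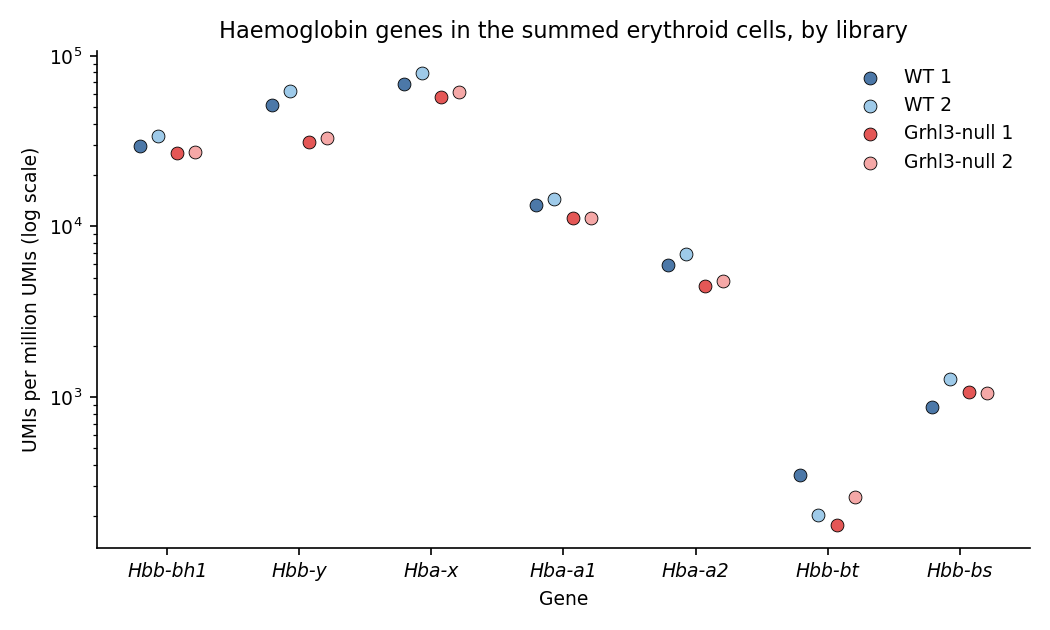
CPM, UMIs per 1e6 UMIs (y axis, log scale), of each haemoglobin gene (x axis) in the summed erythroid cells of each library; a point is a library. *Hbb-y* shows the widest gap between WT (51478 and 62215) and *Grhl3*-null (31383 and 33118) points.

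Expressed as shares of the haemoglobin UMIs, *Hbb-y* lost ground and *Hbb-bh1* and *Hba-x* gained it. *Hbb-y* made up 30.4% and 31.5% of the haemoglobin UMIs in WT and 23.7% and 23.9% in *Grhl3*-null. *Hbb-bh1* made up 17.4% and 17.1% in WT and 20.3% and 19.5% in *Grhl3*-null. *Hba-x* made up 40.1% and 39.9% in WT and 43.2% and 44.1% in *Grhl3*-null. Shares sum to a whole, so a lower share of 1 gene raises the others. The 3 embryonic genes together dominated in every library, while *Hbb-bs* and *Hbb-bt* together were 0.722% and 0.745% in WT and 0.947% and 0.948% in *Grhl3*-null.

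The ratio of *Hbb-y* to *Hbb-bh1*, 2 β-type genes of the primitive lineage, set the genotypes apart by more than the reactions differed. From the summed UMIs it was 1.74 and 1.84 in WT and 1.17 and 1.22 in *Grhl3*-null, a mean of 1.79 (SD 0.0668) against 1.19 (SD 0.0373), n = 2 each (exact two-sided permutation p = 0.333, the smallest possible). Per cell, the median was 1.52 and 1.63 in WT and 0.984 and 0.779 in *Grhl3*-null, and *Hbb-bh1* exceeded *Hbb-y* in 29.2% and 22.9% of WT cells against 51.7% and 56.1% of *Grhl3*-null cells. On the α side the corresponding ratio, *Hba-a1* and *Hba-a2* to *Hba-x*, was 0.284 and 0.270 in WT and 0.274 and 0.263 in *Grhl3*-null, with overlapping groups. The ratio of all α-type to all β-type UMIs was 1.06 and 1.03 in WT and 1.23 and 1.25 in *Grhl3*-null.

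Within every library, cells with more haemoglobin had more *Hbb-y* for each *Hbb-bh1*. Pearson's r between the log2 ratio and the haemoglobin share of a cell was 0.57 and 0.58 in WT (65 and 48 cells) and 0.60 and 0.68 in *Grhl3*-null (60 and 66 cells), given as a description, since both measures use the same UMIs and libraries. Against the depth of the cell the same ratio gave r between -0.12 and 0.13. The ratio of *Hba-a1* and *Hba-a2* to *Hba-x* also followed the haemoglobin share, with r of 0.61 and 0.71 in WT and 0.60 and 0.74 in *Grhl3*-null.

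The mix of cells along this axis differed between the libraries of the 2 genotypes. Cells with 1 to 10% haemoglobin were 9.23% and 6.25% of the erythroid cells in WT (6 and 3 cells) and 28.3% and 28.8% in *Grhl3*-null (17 and 19 cells). Cells with at least 20% were 33.8% and 50% in WT and 16.7% and 25.8% in *Grhl3*-null. In the cells with at least 20% haemoglobin, *Hbb-y* per *Hbb-bh1* was 2.46 and 2.39 in WT and 2.04 and 2.29 in *Grhl3*-null. In the 10 to 20% band it was 1.16 and 1.23 against 1.06 and 0.830. In the 1 to 10% band it was 1.22 and 0.520 against 0.307 and 0.339, where the WT values rest on very few cells. Those of WT 1 had a median of 93997 UMIs, against 35111 in WT 2 and 41306 and 41050 in *Grhl3*-null. The part of doublets in this band was not tested. The difference of means, -0.60 over all cells, was -0.55 in the lower, -0.25 in the middle and -0.26 in the upper band. The haemoglobin share that sets the bands includes *Hbb-y* itself, and the part of the mix of cells in the lower *Hbb-y* level was not tested.

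**Figure D3:**
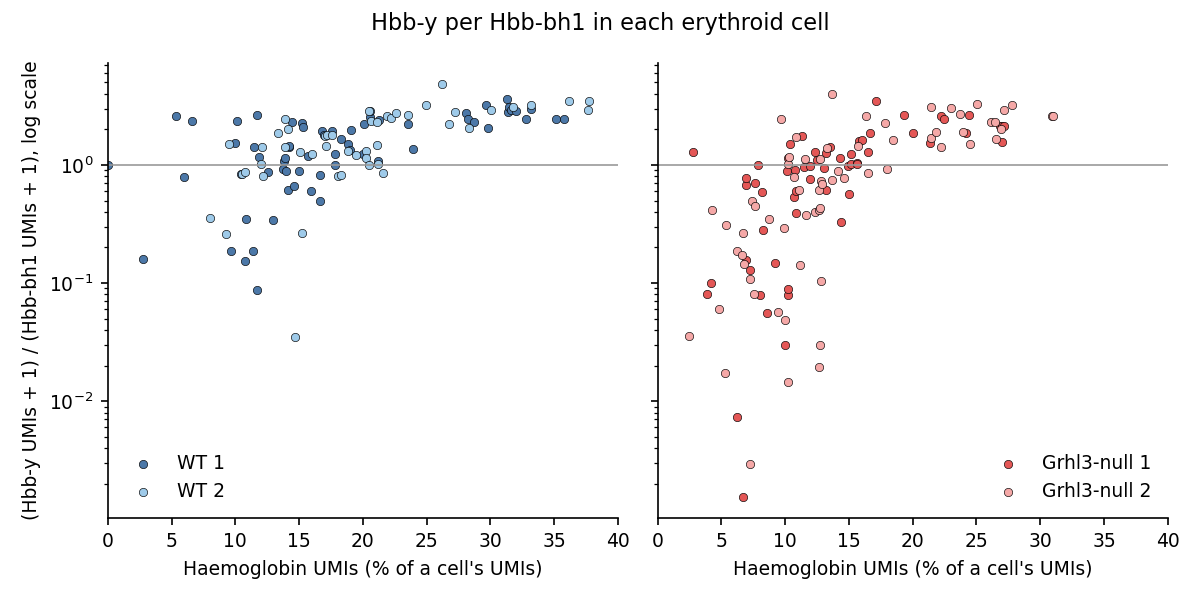
*Hbb-y* UMIs plus 1 over *Hbb-bh1* UMIs plus 1 (y axis, log scale) against the haemoglobin share of the cell in percent (x axis), in WT (left) and *Grhl3*-null (right) erythroid cells; a point is a cell and the line marks equal counts. Ratios well below 1 sit among the cells with less haemoglobin, and 28.3% and 28.8% of *Grhl3*-null cells against 9.23% and 6.25% of WT cells lie in the 1 to 10% range.

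The members rose and fell together from cell to cell, with the later β genes apart. Over the 239 cells, relative to the UMIs of all other genes and centred within library, *Hba-x* followed *Hbb-bh1* at r = 0.97, *Hba-a1* at 0.95 and *Hba-a2* at 0.88, while *Hbb-y* followed *Hbb-bh1* at only 0.61. By library, r of *Hba-x* with *Hbb-bh1* was 0.99 and 0.91 in WT and 0.94 and 0.94 in *Grhl3*-null. WT 1 holds the cell with only 5 haemoglobin UMIs, whose part in these values was not tested. *Hbb-bs* and *Hbb-bt* followed the other 5 genes at r of 0.16 to 0.37 and each other at 0.14. These values share the libraries and the depth of the cells and are descriptions.

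Genes of haem synthesis, as a list, followed the haemoglobin genes from cell to cell. Among the 8766 genes detected in 10% or more of the erythroid cells, those with the highest r to the summed haemoglobin UMIs included *Mgst3* (0.84), a microsomal glutathione transferase, *Tmem14c* (0.81), a mitochondrial porphyrin transporter, *Prdx2* (0.79), a red cell peroxiredoxin, and *Blvrb* (0.78), a biliverdin reductase. The 5 lowest were *Actg1* (-0.63), *Pgam1* (-0.60), *Tmsb10* (-0.59), *Ptma* (-0.59) and *Rasgrp2* (-0.56). The 9 listed genes of haem synthesis had a median r of 0.63, the 15 ranked red cell membrane genes 0.35 and the 14 ranked globin regulators 0.12, against -0.05 over all ranked genes.

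Those pathway genes did not pass the test between genotypes. Of the 9 haem synthesis genes 0 were called and their median log2 fold change was -0.25, against 0.00056 over all 8535 genes tested. *Alas2*, the erythroid enzyme of the first step, stood at 312 and 351 CPM in WT and 253 and 285 CPM in *Grhl3*-null (log2 fold change -0.37, adjusted p = 0.444, edgeR). Of 12 iron, haem transport and chaperone genes 0 were called (median -0.23), with *Slc25a37*, the mitochondrial iron importer, at 593 and 637 against 514 and 559 CPM. Over all genes 546 had an unadjusted p under 0.05 in this edgeR test, and DESeq2 called 13.

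Among regulators and membrane genes 1 gene passed the test. Of 14 tested globin regulators 0 were called, with a median log2 fold change of -0.0049. *Zfpm1*, the partner of GATA1, stood at 131 and 143 CPM in WT and 152 and 143 CPM in *Grhl3*-null. The gate genes *Gata1* and *Klf1*, the latter a direct activator of β-type genes, stood at 81.7 and 82.9 against 97.9 and 94.8 CPM and at 213 and 229 against 211 and 205 CPM; since cells were chosen by these genes, the values are a description. Of 15 red cell membrane genes 1 fell, *Rhd*, the Rhesus protein, at 47.9 and 50.3 CPM in WT and 25.8 and 24.9 CPM in *Grhl3*-null (log2 fold change -1.02, adjusted p = 0.0278, edgeR). *Slc4a1*, the band 3 anion exchanger, stood at 325 and 390 against 306 and 334 CPM. *Hbq1b*, the only other globin gene abundant enough to test, stood at 21.9 and 28.9 against 20.1 and 25.2 CPM.

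Outside the erythroid gate haemoglobin was present in nearly every class of cell at a level of about 1 UMI a cell. The median other cell held 1 haemoglobin UMI in the cells with neither *Gata1* nor *Klf1*, in all 4 libraries, against 5660 to 6991.5 UMIs in the erythroid cells. Cells with *Gata1* alone held a median of 1 to 2 UMIs and at most 8. Cells with *Klf1* alone also had a median of 1 to 2 UMIs. Single *Klf1* cells reached 13737 and 10050 UMIs in WT and 9 and 4336 in *Grhl3*-null. The 7 genes summed to 211 and 105 CPM in the other cells of WT and 30.1 and 60.3 CPM in *Grhl3*-null (exact two-sided permutation p = 0.333, the smallest possible). The edgeR test called 5 members lower in *Grhl3*-null other cells, where 18.9% of all 17134 genes tested were lower. *Hbb-y* gave a log2 fold change of -2.71 (adjusted p = 0.000785) and *Hbb-bh1* of -1.07 (adjusted p = 0.0432). DESeq2 on the same sums did not call *Hbb-bh1* (adjusted p = 0.251), *Hba-x* (0.0886) and *Hba-a2* (0.0533), and without the filter on low counts edgeR did not call *Hbb-bh1* (0.0783). With doublets removed edgeR did not call *Hbb-bh1* (adjusted p = 0.139) and *Hba-x* (0.0513). Without WT replicate 1 the same 2 genes lost their calls, *Hbb-bh1* at -0.50 (adjusted p = 0.228) and *Hba-x* at -1.12 (0.0530), and without *Grhl3*-null replicate 1 *Hbb-bh1* did, at -0.66 (0.0517).

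Much of these sums lay in 10 cells. Other cells with at least 100 haemoglobin UMIs numbered 6 and 2 in WT and 0 and 2 in *Grhl3*-null, with 927 to 13737 UMIs each, and held 82.7% and 70.8% of the other cells' haemoglobin UMIs in WT and 42.2% in *Grhl3*-null 2. None of the 10 had a UMI of *Gata1*, and 8 had *Klf1*. In the rest no cell exceeded 19 UMIs. When cells with any UMI of 7 erythroid markers were left out, the sums were 36.6 and 30.8 CPM in WT and 29.8 and 34.9 CPM in *Grhl3*-null, and the groups overlapped. *Hba-x* then gave a log2 fold change of 0.01 (adjusted p = 0.937) and *Hba-a1* of -0.03 (adjusted p = 0.865, edgeR).

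What remained was the contrast between the β-type embryonic genes. Without marker-bearing cells, *Hbb-y* stood at 12.3 and 10.8 CPM in WT and 7.51 and 8.40 CPM in *Grhl3*-null (log2 fold change -0.57, SE 0.07, adjusted p = 0.000581, edgeR). *Hbb-bh1* stood at 7.44 and 5.82 CPM in WT and 8.03 and 8.76 CPM in *Grhl3*-null, the opposite direction (log2 fold change 0.31, adjusted p = 0.0405, edgeR). Calls were common outside the gate, where the edgeR test over all other cells called 6209 of 17134 genes in either direction. A call alone therefore does not set these 2 genes apart. *Hbb-y* per *Hbb-bh1* was 1.66 and 1.86 in these WT cells and 0.935 and 0.959 in these *Grhl3*-null cells. The *Hbb-y* share of haemoglobin UMIs was 33.7% and 35.2% against 25.2% and 24.1%, beside 30.4% and 31.5% against 23.7% and 23.9% in the erythroid cells of the same libraries. *Hba-a1* and *Hba-a2* per *Hba-x* was 0.362 to 0.421 here and 0.263 to 0.284 in erythroid cells. *Hbb-bs* and *Hbb-bt* together were counted 53 and 47 times in the WT libraries and 62 and 103 times in the *Grhl3*-null libraries.

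Every class of cells held some of this signal. Among cells without erythroid markers that fell in a single gate, the 8 gates ranged from 32.8 to 39.3 CPM in WT 1, 27.4 to 34.7 in WT 2, 24.6 to 31.3 in *Grhl3*-null 1 and 30.3 to 38.9 in *Grhl3*-null 2. The endothelial gate (*Cdh5* and *Pecam1*), which marks the vessel lining in contact with blood, held 32.8 and 32.9 CPM in WT and 26.0 and 37.0 CPM in *Grhl3*-null. Some gates of 1 library differed beyond their 95% Poisson intervals, such as *Tcf15* and *Meox1* (30.3 CPM, 27.2 to 33.6) and *Tbx6* and *Dll1* (38.9 CPM, 35.2 to 42.9) in *Grhl3*-null 2; no test over libraries was made. The *Tbx6* and *Dll1* gate, which marks pre-somitic mesoderm, held 39.3, 33.3, 27.7 and 38.9 CPM in the same order. As counted, 66.0% to 69.7% of cells without erythroid markers had a haemoglobin UMI; after every cell was thinned to 7500 UMIs the share was 19.2% to 23.8%. Whether these UMIs are background or expression was not tested.

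**Figure D4:**
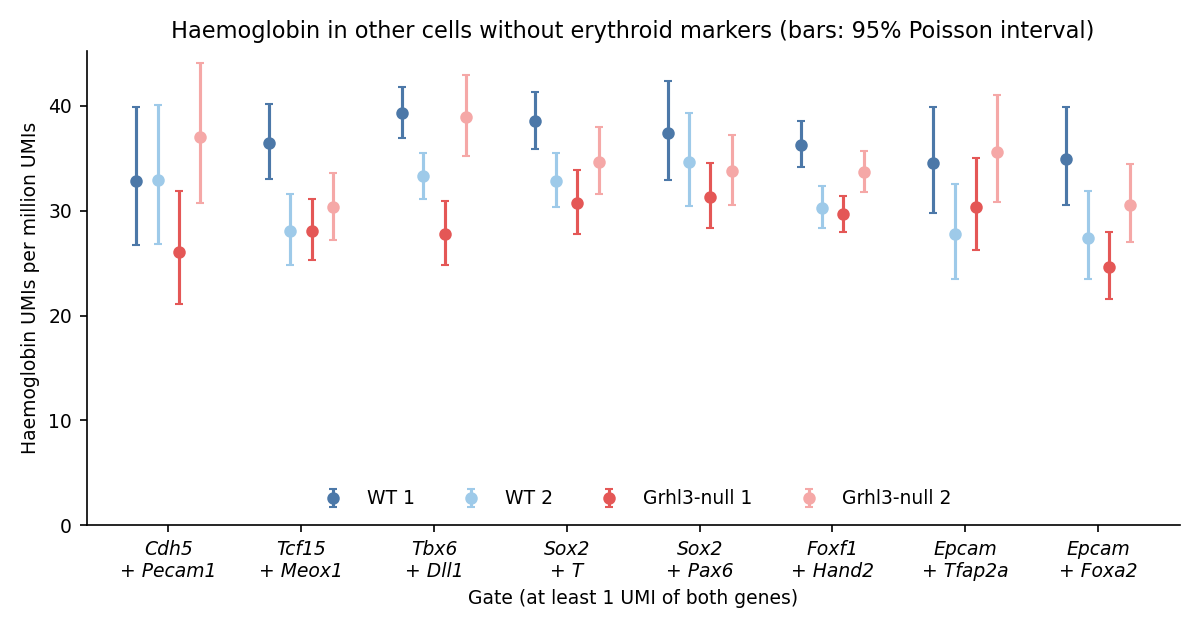
Summed haemoglobin CPM (y axis) in other cells without erythroid markers, for 8 gates of 2 marker genes (x axis) and each library; points are sums over cells and bars are 95% Poisson intervals that cover counting error only. All values lie between 24.6 and 39.3, and no gate is the highest or the lowest in all 4 libraries.

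Barcodes below the cell filters held a second pattern. In the *Grhl3*-null libraries 6 barcodes (1 in library 1 and 5 in library 2) with 1466 to 3145 haemoglobin UMIs had 0 UMIs of *Hbb-bh1*, *Hbb-y* and *Hba-x*. Their haemoglobin UMIs were 81.1% to 93.5% of all their UMIs and came from *Hba-a1*, *Hba-a2*, *Hbb-bt* and *Hbb-bs*, with the 2 later β genes at 66.7% to 78.2% of them. They held 1608 to 3380 UMIs and 112 to 382 genes, each with 3 to 10 UMIs of *Alas2* and none of *Gata1* and *Klf1*. The pattern, at least 100 haemoglobin UMIs with none of the 3 embryonic genes, was seen in 0 of the 20198 cells that passed the filters and in 0 of 727 and 0 of 582 WT barcodes that failed them. More barcodes failed in the *Grhl3*-null libraries, 1335 in library 1 and 1397 in library 2.

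**Figure D5:**
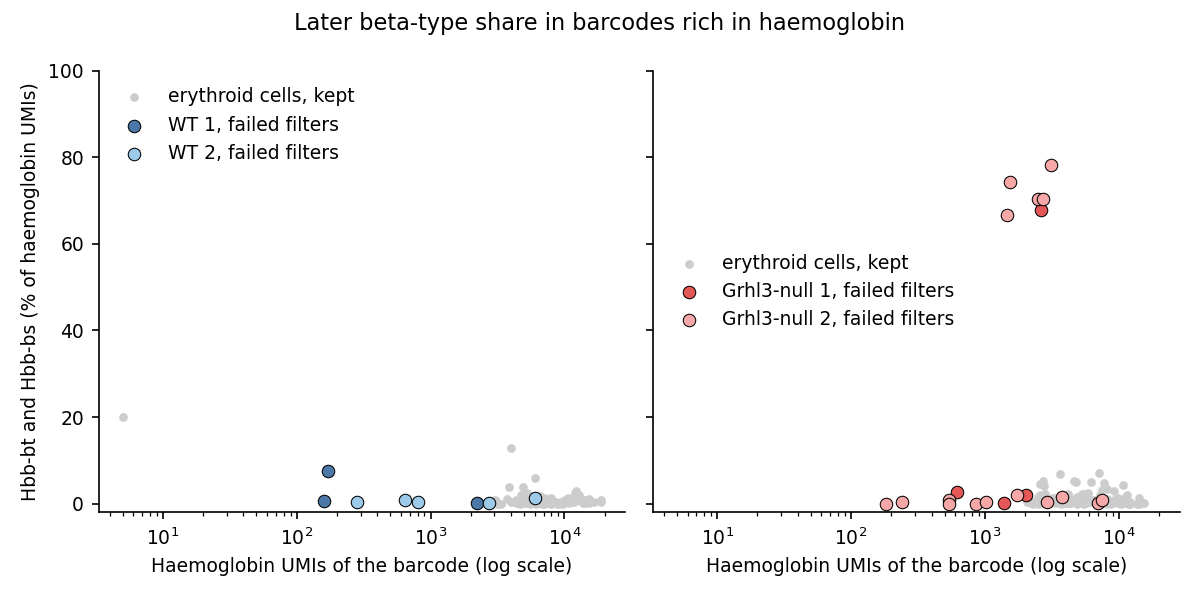
Share of *Hbb-bt* and *Hbb-bs* in the haemoglobin UMIs (y axis, percent) against the haemoglobin UMIs of the barcode (x axis, log scale), in WT (left) and *Grhl3*-null (right); grey points are erythroid cells that passed the filters and coloured points are barcodes with at least 100 haemoglobin UMIs that failed them. The 6 points at 66.7% to 78.2% are all in *Grhl3*-null libraries, and other failed barcodes reach at most 7.60%.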

How the data were processed

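The caudal part of E8.5 embryos was profiled with 10x Genomics 3′ chemistry; the deposited UMI counts per gene and barcode had been made by the authors with Cell Ranger 3.0.0 against mm10, with barcodes already called as cells. The members and gene lists were chosen with earlier results of these data known. Cells with at least 3000 genes, 7500 UMIs and at most 7% mitochondrial UMIs were kept; erythroid cells had 1 or more UMIs of *Gata1* and of *Klf1*. Counts were summed per library and compartment and tested with edgeR 4.0.16 (TMM, filterByExpr, quasi-likelihood test, Benjamini-Hochberg threshold 0.05); DESeq2 1.42.0 was an alternative. The tests, checked on simulated counts with 200 changed genes (4-fold), called 196 of them in erythroid sums of 8521 genes, and 5 unchanged genes. Changes smaller than 4-fold, such as those of the members in erythroid cells, were not simulated. Scrublet's automatic cutoff marked at most 0.0627% of cells, so the top 5% of scores were removed as an alternative only. Same-numbered libraries did not deviate together (correlation -0.20 in erythroid and 0.0016 in other cells). Named genes were the members, the listed genes and the 5 highest and 5 lowest correlations; some of these genes are not reported here. Intervals cover counting error only. Promoters came from RefSeq (GRCm38.p6) and gene positions from GENCODE M21. Alternatives left out the cell filter, the low-count filter or each library, raised the gate to 2 UMIs, or left out cells with erythroid markers.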

Additional observations from a re-analysis of the deposited data

Results flagged for a closer look

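The difference between *Grhl3*-null and WT was itself different in erythroid and other cells for 6 of the 7 haemoglobin genes in the edgeR interaction fit, against 0.365% of 16184 genes. In the fit with each library as a term, the effect in erythroid cells minus that in the other cells was 0.75 for *Hbb-bh1*, 1.75 for *Hbb-y*, 1.36 for *Hba-x*, 1.35 for *Hba-a1*, 0.98 for *Hba-a2* and 0.73 for *Hbb-bs* on the log2 scale. Positive values say that the deficit in *Grhl3*-null was smaller in erythroid cells than in the other cells. With cells bearing erythroid markers left out of the other cells the values were -0.62, -0.31, -0.40, -0.34, -0.47 and -0.86. DESeq2 called none of the members (adjusted p from 0.855 for *Hbb-y* to 0.999). The direction of this difference thus rests on the marker-bearing cells outside the gate, and the erythroid gate itself was not varied in this fit.

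In barcodes below the cell filters, left out of the sums tested in the report, at least 100 haemoglobin UMIs with none of an embryonic haemoglobin gene were seen in 1 barcode of *Grhl3*-null library 1 and 5 barcodes of *Grhl3*-null library 2, and in 0 barcodes of the WT libraries. These barcodes held 90.9% of all *Hbb-bt* and 93.4% of all *Hbb-bs* UMIs outside the erythroid gate in *Grhl3*-null 1, and 97.4% and 98.5% in *Grhl3*-null 2, of all deposited barcodes. Their β to α ratio was 2.53, *Hbb-bs* was counted 5.03 times as often as *Hbb-bt*, and *Hba-a1* 1.43 times as often as *Hba-a2*. With all barcodes included, *Hbb-bt* and *Hbb-bs* in the cells outside the gate gave log2 fold changes of 4.07 and 4.93. Their source was not tested, and genotype, pool and collection cannot be told apart.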

How the results depend on the processing

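The number of genes called in erythroid cells, 7 as reported, was 13 with DESeq2, 73 without a filter on low counts, 85 with doublets removed, 3 with the replicate block, 16 with a crossed pairing chosen after seeing the data, and 4 to 260 with 1 library left out. *Hbb-y* stayed lower under all 12 alternatives, from -1.11 to -0.70, and lost its call with the replicate block (adjusted p = 0.177) and without *Grhl3*-null replicate 2. The replicate numbers mark reactions of 1 pool and do not pair libraries. *Hbb-bs* in erythroid cells reversed to 0.14 with a gate at 2 UMIs and ran from -0.39 to 0.26 with 1 library left out. In the other cells, with erythroid markers left out, *Hbb-bh1* reversed to 0.31, *Hba-x* to 0.012, *Hbb-bt* to 0.61 and *Hbb-bs* to 0.79; *Hbb-bt* reached 4.07 and *Hbb-bs* 4.93 without a cell filter, and *Hbb-bt* ran from -1.72 to 0.77 with 1 library left out. The erythroid against other contrast, with 59 calls, had 9 with DESeq2, 2 with the replicate block and 13 to 66 with 1 library left out; without marker-bearing cells (chosen after seeing the data) all 7 members reversed, with *Hbb-bh1* at -0.62, *Hbb-y* at -0.31, *Hba-x* at -0.40, *Hba-a1* at -0.34, *Hba-a2* at -0.47, *Hbb-bt* at -1.02 and *Hbb-bs* at -0.86, and with 1 library left out *Hbb-bt* ran from -0.80 to 0.98 and *Hbb-bs* from -0.26 to 1.47. *Hbb-y* per *Hbb-bh1* was -0.71 (*Grhl3*-null minus WT) with doublets removed, and -0.55, -0.25 and -0.26 in cells of 1 to 10%, 10 to 20% and at least 20% haemoglobin. The 1 to 10% band rests on very few WT cells, and those of WT 1 had a median of 93997 UMIs. The difference in the *Hbb-bt* share of haemoglobin UMIs ran from -0.046 to 0.057 percentage points with 1 library left out. The cause was not tested, except that in the WT libraries the marker-bearing cells hold most haemoglobin UMIs of the other cells. Fits without 1 library have 1 residual degree of freedom in the erythroid and other sums and assume that a lone library varies like the others. Genes at low counts and cells at the filter's edge limit the precision.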
